A study of Homo sapiens with 39 samples.

Results

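The HNF4A isoform 10 line was compared with its parental HCT116 cells, using 3 libraries of each, 6 of the 39 in the series. Members were taken from the sample titles alone. HCT116 is a human colorectal cancer cell line. The isoform 10 line carries 1 insertion of human HNF4A isoform 10 with green fluorescent protein (GFP) fused to its C-terminus, placed through the Flp-In T-REx system, in which doxycycline switches on transcription. The parental cells carry no HNF4A construct. Both received 2.5 µg/ml doxycycline for 48 h, so exposure to the drug is shared. Before induction both were kept in 5 µg/ml blasticidin, the parental cells with 100 µg/ml zeocin and the isoform 10 line with 100 µg/ml hygromycin B, and these antibiotics were withdrawn at induction. There was 1 line for isoform 10 and no line with GFP alone, so isoform, fusion partner, clone and selection history cannot be told apart. The labels number the libraries as replicates without naming separate cultures. The p-values rest on the spread between libraries of the same group, pooled over all 39 libraries of the series, and that spread may be technical.

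HNF4A is a nuclear receptor that binds DNA as a homodimer and switches on genes of hepatocytes and of the intestinal epithelium, among them genes of lipid transport, bile acid metabolism and the brush border. Its isoforms arise from alternative promoters, P1 and P2, and from alternative splicing, so that they differ at the N-terminus and at the C-terminus. P2 forms are known from the colon and from fetal liver, P1 forms from the adult liver and the differentiated intestine.

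The construct was visible in every isoform 10 library. HNF4A, summed over the 12 isoform entries of the expression table, stood at 644.43, 626.78 and 712.72 TPM, transcript abundances scaled to the same total in every library, in the isoform 10 line and at 31.95, 30.81 and 31.66 TPM in the parental cells. The groups did not overlap, and the difference was 4.35 ± 0.14 on the log2 scale (standard error, SE; adjusted p = 1.03e-20 in limma). Between 99.43% and 99.75% of that sum in the isoform 10 libraries sat in the isoform 10 entry. The isoform entries share most of their sequence, so the split between them is uncertain, and the sum does not separate the construct from the cell's own gene.

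Epithelial markers were expressed in both groups. Of 11 epithelial markers, 9 had a mean of at least 1 TPM in each group, and their summed level was 3340 to 3490 TPM in the parental and 3280 to 3390 TPM in the isoform 10 libraries. CDX1 was close to 0 in both (0.0251 and 0.005 TPM). The leukocyte list summed to 5.64 to 7.06 TPM in the parental and 17.9 to 20 TPM in the isoform 10 libraries. That gap was carried by the lysosomal glycoprotein gene CD68, at 3.85 ± 0.682 against 16.3 ± 1.16 TPM (SD, n = 3), while the pan-leukocyte gene PTPRC was at 0.065 and 0.0473 TPM and CD3D was listed at 0 in all libraries. TPM keeps no depth, so the counting error behind a value is unknown. The authors' mean normalized counts in the isoform 10 table sum to 54667484.

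The uncharacterised gene C11orf86, the cytokine gene IL32, the fatty acid activating enzyme gene ACSL5 and the lipid droplet gene CIDEC were the highest by fold change in the isoform 10 line, all from a parental level below 1 TPM. Of the gene lists, 3 of 17 lipid handling genes and 6 of 17 brush border genes tested were called higher. The dehydrogenase gene DHRS2, the matrix protein gene SPARC and 2 keratin genes were lower. A gene was called when limma gave an adjusted p under 0.05 and the absolute fold change on the log2(TPM + 1) scale was at least 1, a scale that understates the change of genes with low levels. Of 15002 genes tested, 215 were called (1.43%), 168 higher (1.12%) and 47 lower (0.313%). The groups did not overlap for 210 of the 215, and among all genes tested they did not overlap for 7822 (52.1%). Among the called, 172 were called again without each of the 6 libraries in turn, and 43 were not called in at least 1 of those fits.

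**Figure D1:**
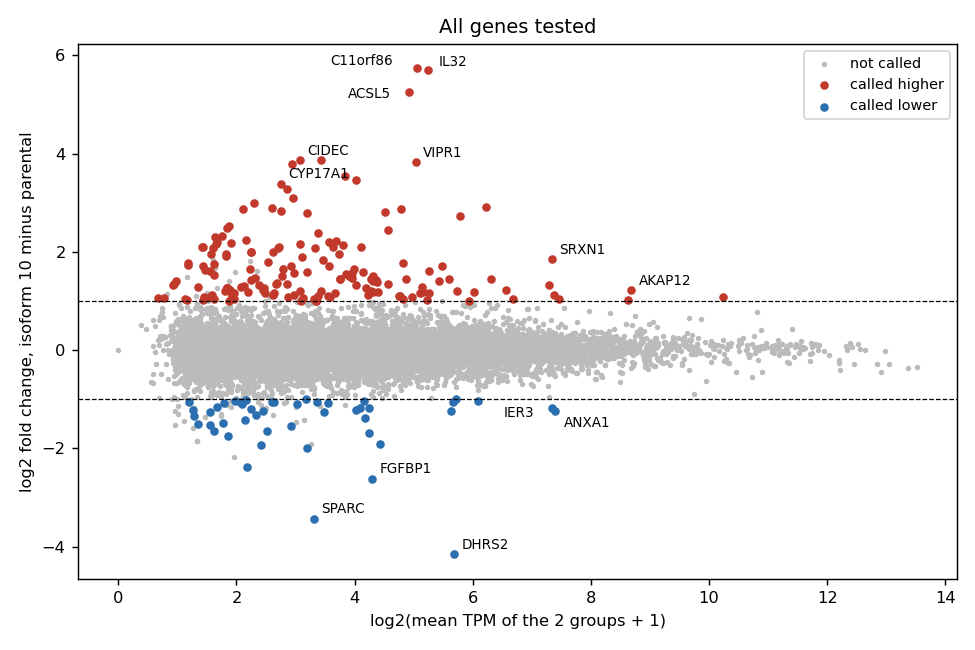
Log2 fold change of isoform 10 minus parental (vertical axis) against the log2 of the mean TPM of both groups plus 1 (horizontal axis) for the 15002 genes tested, each point 1 gene. The 168 genes called higher (red) reach 5.74 and the 47 called lower (blue) reach -4.16, with dashed lines at a fold change of 1 in either direction on the log2 scale.

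The median level of the higher genes was 2.6 TPM in the parental cells and 12.6 TPM in the isoform 10 line, where the median parental level of all genes tested was 17.1 TPM. Of the 168, 48 had a parental mean under 1 TPM, and 19 of these reached at least 5 TPM in the isoform 10 line. Genes were kept on their mean over all 39 libraries, so a gene this low in the parental cells could be tested only through lines in which it was higher, and the low parental median is partly set by that filter and by the fold threshold. Counts of list members called carry the same limit, since members low in most lines were not tested. The lower genes had medians of 7.68 TPM in the parental cells and 2.69 TPM in the isoform 10 line. Protein-coding genes made up 76.7% of the called genes and 80.7% of those tested.

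The gene with the highest fold change was C11orf86, an open reading frame without a described function at chr11:66975277-66977004 (GRCh38, plus strand). The parental libraries held 0.3, 0.139 and 0.213 TPM of it, the isoform 10 libraries 65.1, 62.8 and 63.8 TPM. The 3 isoform 10 libraries lay close together and far from the parental ones, and the difference came to 5.74 ± 0.14 on the log2 scale (SE; adjusted p = 2.41e-23 in limma). IL32, a pro-inflammatory cytokine gene at chr16:3065297-3082192 (plus strand), was next. It measured 0.446, 0.524 and 0.304 TPM in the parental and 75, 71.3 and 74.0 TPM in the isoform 10 libraries, which gives 5.71 ± 0.15 (adjusted p = 1.69e-22).

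Lipid genes followed. ACSL5, which activates long-chain fatty acids to their coenzyme A esters, lies at chr10:112374018-112428380 (plus strand). The parental libraries held 0.526, 0.64 and 0.485 TPM of it and the isoform 10 libraries 58.0, 54.6 and 61.8 TPM (log2 fold change 5.25 ± 0.11, adjusted p = 2.92e-25). CIDEC, a protein of the lipid droplet surface that promotes droplet growth, went from 0.0344, 0.125 and 0.0643 TPM to 15.3, 14 and 14.9 TPM (3.87 ± 0.13). Its relative CIDEB, which acts in the lipidation of secreted lipoproteins, was at 2.28 ± 0.123 TPM in the parental and 6.67 ± 0.445 TPM in the isoform 10 line (SD, n = 3), a log2 fold change of 1.22 ± 0.18. These were the 3 called members, all higher, of 17 lipid handling genes tested, whose median log2 fold change was 0.14 beside -0.021 for all genes tested. Among all genes tested, 1.12% were called higher and 0.313% lower. ACSL5 and CIDEC passed the filter on mean TPM only through lines in which they were higher, so this count is partly set by the filter.

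In fatty acid oxidation, 1 of 21 genes tested was called higher and none lower, where 1.12% of all genes tested were called higher and 0.313% lower. The called gene was ACAA2, the thiolase of the last step of mitochondrial beta-oxidation, at 55.2, 56.3 and 56.6 TPM in the parental and 127, 128 and 141 TPM in the isoform 10 libraries (1.22 ± 0.06). Without the fold threshold, 11 of the 21 passed an adjusted p under 0.05 on the higher side and 2 on the lower side, where 17.0% of all genes tested passed on the higher side and 20.4% on the lower side. Those on the higher side included ETFDH, which passes electrons from beta-oxidation to ubiquinone (0.94 ± 0.10), and PPARA, the nuclear receptor that drives fatty acid oxidation genes (0.79 ± 0.11). CPT1B, the muscle form of the enzyme that admits fatty acids to mitochondria, was on the lower side (-0.60 ± 0.15).

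BAAT, which conjugates bile acids to glycine or taurine, measured 0.502, 0.297 and 0.248 TPM in the parental and 13.7, 11.4 and 11.5 TPM in the isoform 10 libraries (3.29 ± 0.16). CYP17A1, the steroid 17-alpha-hydroxylase and lyase, measured 0.113, 0.191 and 0.188 TPM in the parental and 11.6, 9.38 and 12.9 TPM in the isoform 10 libraries (3.39 ± 0.17). No isoform 10 library came near a parental one for either gene.

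Of 18 phase I enzymes tested, 2 were called higher and 1 lower. For the lists in this paragraph, the shares to compare are 1.12% of all genes tested called higher and 0.313% lower. DHRS3, which reduces retinal to retinol, rose from 13.7 ± 2.16 to 95.1 ± 2.17 TPM (2.72 ± 0.15), and CYP1A1, a monooxygenase of aromatic hydrocarbons, from 2.35 ± 0.339 to 16.4 ± 1.34 TPM (2.38 ± 0.15; SD of levels, n = 3). Of 21 phase II enzymes tested, SULT2B1, a sulfotransferase of sterols (2.11 ± 0.15), and MGST2, a microsomal glutathione transferase (1.72 ± 0.15), were the 2 called, both higher. Of 29 transporters tested, 2 were called, both higher: SLCO2B1, an uptake carrier of organic anions (2.31 ± 0.14), and ABCG2, an efflux pump (2.17 ± 0.11). SLCO2B1, with a parental mean of 0.0348 TPM, passed the filter only through lines in which it was higher. The transporter count is therefore partly set by the filter.

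The brush border list had the highest count of calls among the lists. Of 17 members tested, 6 were called higher and none lower, where 1.12% of all genes tested were called higher and 0.313% lower. The median log2 fold change was 0.35, and 10 further members did not pass the filter on low values. VIL1 and ANPEP, under 1 TPM in the parental cells, passed the filter only through lines in which they were higher. The count of 6 is therefore partly set by the filter. MYO15B, an unconventional myosin gene, measured 1.66, 1.59 and 1.78 TPM in the parental and 28.1, 27.9 and 30.2 TPM in the isoform 10 libraries (3.47 ± 0.16). VIL1, the actin-bundling protein villin of microvilli, measured 0.482, 0.683 and 0.497 TPM and then 7.06, 5.51 and 6.55 TPM (2.24 ± 0.17). ANPEP, the peptidase aminopeptidase N of the microvillus membrane, measured 0.181, 0.119 and 0.174 TPM and then 3.62, 3.38 and 4.81 TPM (2.08 ± 0.10). For all 3 genes the groups were well apart, although VIL1 and ANPEP stayed below 10 TPM.

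The other 3 brush border calls were of genes already expressed in the parental cells. SLC9A3R1, the scaffold that ties membrane proteins to ezrin, stood at 88.3 ± 1.87 and 224 ± 11.0 TPM (1.33 ± 0.08). MISP, an actin-bundling protein, stood at 10.5 ± 0.501 and 29 ± 0.802 TPM (1.38 ± 0.09), and USH1C, the scaffold harmonin of the intermicrovillar links, at 6.43 ± 0.211 and 15.0 ± 1.82 TPM (1.10 ± 0.13). Ezrin itself, EZR, changed less (396 ± 5.12 and 497 ± 6.06 TPM, 0.33 ± 0.04), and FSCN1, the bundling protein fascin of filopodia, was the 1 member on the lower side (-0.51 ± 0.05). The list was not uniform: CDHR2 and CDHR5, cadherins that join microvilli, stayed under 1 TPM in both groups, at 0.365 and 0.144 TPM in the parental cells and 0.27 and 0.142 TPM in the isoform 10 line.

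Classical hepatic and intestinal HNF4A target genes were mostly below the filter. Of 21 on the list, 5 were tested and 2 were called, both higher: VIL1 and LGALS4, an intestinal galectin (0.137 ± 0.0561 and 4.12 ± 0.335 TPM, 2.17 ± 0.17). Both were under 1 TPM in the parental cells and could be tested only through lines in which they were higher. The share called higher among all genes tested was 1.12%. F10, a coagulation factor, did not pass (9.25 ± 0.569 and 9.54 ± 0.508 TPM, adjusted p = 0.853), nor did MTTP, which loads lipid onto apolipoprotein B (1.27 ± 0.0879 and 1.31 ± 0.298 TPM, adjusted p = 0.912). The plasma protein genes APOH and TTR and the fatty acid binding gene FABP1 were listed at 0 in all 6 libraries.

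VIPR1, a receptor of vasoactive intestinal peptide at chr3:42489299-42537573, measured 3.46, 3.01 and 3.52 TPM in the parental and 67.7, 57.5 and 56.0 TPM in the isoform 10 libraries (3.82 ± 0.16). Its antisense gene VIPR1-AS1 lies within it and was more scattered, from 13.3 to 35.6 TPM in the isoform 10 line. The library kit is directional, but the strand setting of the quantification is not given in the sources used here, so reads of the pair may not be told apart. Of 19 EGF family and feedback genes tested, the ligands EREG (1.51 ± 0.10) and AREG (1.45 ± 0.10) were called higher and none lower. Across all genes tested 1.12% were called higher and 0.313% lower. AREG stood at 26.1, 26.0 and 22.6 TPM in the parental and 76.1, 68.2 and 65.5 TPM in the isoform 10 libraries. SPRY4, an inhibitor of the same signalling path, fell by 0.98 ± 0.09 on the log2 scale, just short of the fold threshold.

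Among regulators, APOBEC1, the cytidine deaminase that edits apolipoprotein B messenger RNA, was at 0, 0.121 and 0 TPM in the parental and 14, 13.8 and 12.2 TPM in the isoform 10 libraries (3.78 ± 0.19). Among nuclear receptors, NR1I3, the constitutive androstane receptor, was called higher (1.09 ± 0.16) and NR2F1 lower (-1.06 ± 0.14). NR1I3 stayed low, at 3.01 ± 0.257 TPM in the isoform 10 line. NR2F1 missed the fold threshold without isoform 10 replicate 2 or parental replicate 3. Of 22 gut and liver transcription factors tested, CREB3L3, a membrane-bound factor of hepatocyte and enterocyte lipid metabolism (1.95 ± 0.16), and KLF6 (1.18 ± 0.09) were called higher. The share over all genes tested was 1.12%. CREB3L3, with a parental mean of 0.21 TPM, passed the filter only through lines in which it was higher, so this count is partly set by the filter. CDX2, a master factor of intestinal identity, was at 15.3 ± 0.403 and 12.5 ± 0.682 TPM (-0.27 ± 0.08, adjusted p = 0.00468). PRAP1, a secreted protein of the gut (3.09 ± 0.14), and the pseudogene AQP7P3 (3.86 ± 0.19) completed the 12 highest. AQP7P3 has near-identical copies, so its level is uncertain.

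In absolute terms the rises were carried by other genes. AKAP12, a scaffold of protein kinase A, went from 246 ± 14 to 574 ± 28.4 TPM (1.22 ± 0.11). CRIP1, a small zinc-binding protein, went from 259 ± 3.18 to 529 ± 21.1 TPM (1.03 ± 0.08), and SRXN1, which repairs oxidised peroxiredoxins, from 69.6 ± 2.88 to 253 ± 12.0 TPM (1.85 ± 0.08). RPL21 had the widest difference in mean TPM (773 ± 162 and 1620 ± 205 TPM), but this ribosomal protein gene has many near-identical pseudogenes, its adjusted p was 0.0299, and it was called in only 2 of the 6 fits that left out a library.

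**Figure D2:**
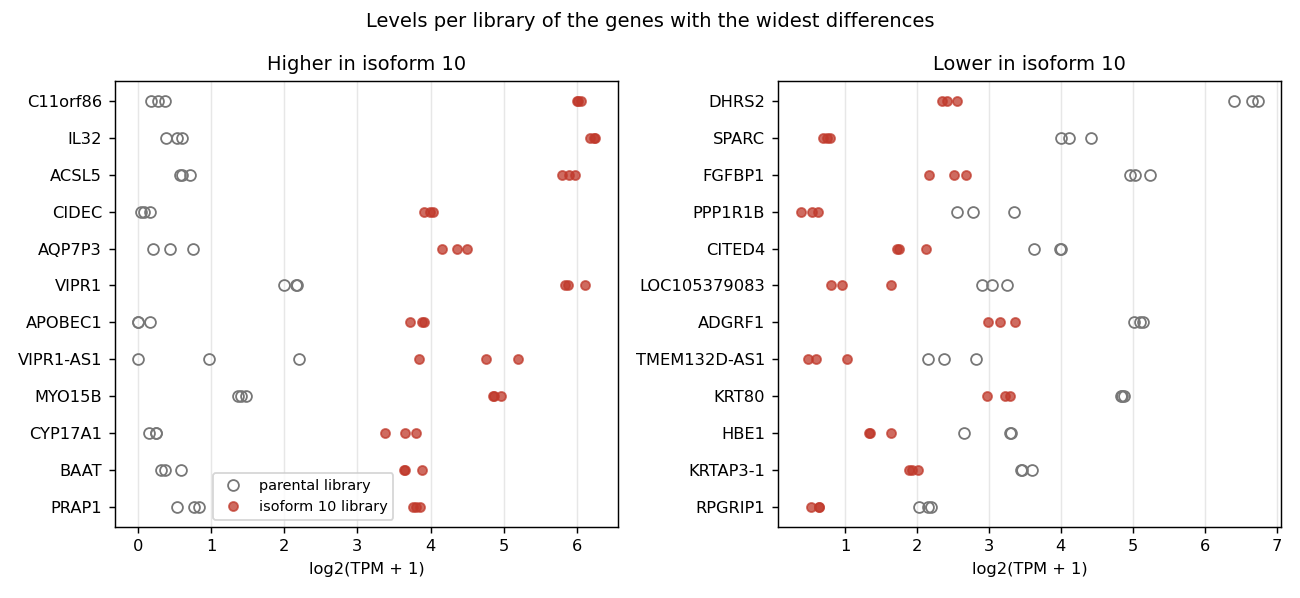
Levels on the log2(TPM + 1) axis in each of the 3 parental libraries (open grey circles) and the 3 isoform 10 libraries (filled red circles) for the 12 genes with the highest and the 12 with the lowest log2 fold change that were called without each library in turn. The genes were also chosen so that the 2 groups do not overlap, so their separation here is not a result. The differences run from 5.74 (C11orf86) to -4.16 (DHRS2).

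Promoter sequence was read for the called genes to see whether they held letters that HNF4A is known to bind, a CAAAG core with a second half-site. RefSeq promoter windows (GRCh38.p14, 250 bases before to 50 after a gene's start, several per gene in places) matched 113 of the 168 higher genes, 27 of the 47 lower genes and 10422 of the genes tested by symbol. CAAAGTCCA, searched on both strands, was in a window of 8 of the 113 higher genes (7.08%), none of the 27 lower genes and 46 of the 10422 tested (0.441%), and in 0.384% of all 35116 windows. CAAAGGTCA was in 3 of the 113 (2.65%) and 41 of the 10422 (0.393%), with 0.407% of all windows holding it. CAAAGTTCA was in 3 of the 113 (2.65%), 1 of the 27 (3.7%) and 29 of the 10422 (0.278%), with 0.296% of all windows. The 3 motifs share their first 5 letters and cannot match at the same place. They were chosen after the calls were known, no test was made, and a match shows letters, not binding.

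The stretches around CAAAGTCCA are printed for the higher genes that hold it before the start, because they show where the letters sit. The sequences run 5′ to 3′ on the gene's strand, end at the start of transcription where they reach it, and have the match in capitals. TGGACTTTG is the same motif read on the opposite strand. Matches began between 8 bases (PIPOX) and 112 bases (MISP) before the start. CD68 held its match 14 bases after the start and is not printed.
APOBEC1, chr12:7665909-7665966, minus strand: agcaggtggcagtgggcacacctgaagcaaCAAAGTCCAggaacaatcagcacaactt
PIPOX, chr17:29043103-29043141, plus strand: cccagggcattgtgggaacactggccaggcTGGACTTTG
SLCO2B1, chr11:75159733-75159801, plus strand: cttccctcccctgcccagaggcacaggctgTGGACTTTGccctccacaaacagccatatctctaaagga
SDCBP2, chr20:1313674-1313724, minus strand: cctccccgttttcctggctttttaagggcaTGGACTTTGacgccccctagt
MISP, chr19:750970-751038, plus strand: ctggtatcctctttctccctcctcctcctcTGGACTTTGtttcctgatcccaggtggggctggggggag
CIDEB, chr14:24307994-24308062, minus strand: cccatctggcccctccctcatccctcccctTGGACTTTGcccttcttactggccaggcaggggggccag
GPR35, chr2:240605365-240605429, plus strand: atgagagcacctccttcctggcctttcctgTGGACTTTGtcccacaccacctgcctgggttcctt

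These genes varied widely in response. PIPOX, a peroxisomal oxidase of pipecolic acid and sarcosine, measured 0.429, 0.575 and 0.288 TPM in the parental and 9.92, 8.5 and 10.5 TPM in the isoform 10 libraries (2.90 ± 0.11). SLCO2B1 measured 0.0537, 0.0167 and 0.0341 TPM and then 5.06, 3.26 and 4.2 TPM. SDCBP2, the PDZ protein syntenin 2, changed by 1.76 ± 0.19, and GPR35, a receptor expressed in the gut, by 1.14 ± 0.15, both on the log2 scale.

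On the lower side DHRS2, a mitochondrial dicarbonyl reductase gene at chr14:23630115-23645639 (plus strand), had the lowest log2 fold change. It measured 83.9, 99.3 and 106 TPM in the parental and 4.34, 4.08 and 4.88 TPM in the isoform 10 libraries (-4.16 ± 0.41, adjusted p = 2.31e-09). SPARC, a collagen-binding matrix protein, measured 15.0, 16.3 and 20.4 TPM and then 0.612, 0.674 and 0.725 TPM (-3.44 ± 0.34). It was the 1 member called of 25 matrix and adhesion genes tested, which had a median of -0.11, where 0.313% of all genes tested were called lower. FGFBP1, which releases fibroblast growth factors from the matrix, measured 31.5, 36.9 and 30 TPM and then 4.73, 5.39 and 3.5 TPM (-2.62 ± 0.22).

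Further lower genes included PPP1R1B, an inhibitor of protein phosphatase 1 (-2.38 ± 0.23), CITED4, a transcriptional coactivator (-2.0 ± 0.23), and the adhesion receptor ADGRF1 (32.9 ± 1.63 and 8.03 ± 1.15 TPM, -1.92 ± 0.14). Of 7 keratins tested, 2 were called, both lower, where 0.313% of all genes tested were called lower. KRT80 measured 27.6, 28.3 and 27.8 TPM in the parental and 8.84, 8.38 and 6.82 TPM in the isoform 10 libraries (-1.69 ± 0.15), and KRT7, a keratin of simple ductal epithelia, 5.15, 5.94 and 5.7 TPM and then 1.8, 1.92 and 1.89 TPM (-1.20 ± 0.12). The abundant keratin genes moved less and not in 1 direction, with KRT8 at -0.17 ± 0.05, KRT18 at -0.31 ± 0.05 and KRT19 at 0.58 ± 0.04.

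Beside DHRS2, the widest falls in mean TPM were those of ANXA1, a calcium-dependent phospholipid-binding protein (235 ± 3.17 and 99.7 ± 8.1 TPM), IER3, an immediate early survival gene (225 ± 14.9 and 99.1 ± 9.07 TPM), CD24, a surface glycoprotein (90.6 ± 6.77 and 43.4 ± 1.09 TPM), and CCDC74A (68.5 ± 2.2 and 28.6 ± 0.567 TPM). Their log2 fold changes were -1.23 ± 0.08, -1.17 ± 0.12, -1.04 ± 0.09 and -1.23 ± 0.08. IER3 and IL32 were the 2 called of 15 NF-kB response genes tested, 1 in each direction, where 0.313% of all genes tested were called lower and 1.12% higher. IL32, with a parental mean of 0.424 TPM, passed the filter only through lines in which it was higher, so its call is partly set by the filter. Without the fold threshold 3 of the 15 passed on the higher side (17.0% of all genes tested) and 8 on the lower side (20.4% of all genes tested), the latter including ICAM1, an adhesion molecule (6.12 ± 0.486 and 2.86 ± 0.172 TPM, -0.88 ± 0.17).

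Cell cycle genes were lower as groups but none was called. All 30 S-phase genes passed an adjusted p under 0.05 on the lower side in limma, by less than the fold threshold, with a median log2 fold change of -0.42, and 27 of 30 mitosis genes did so, with a median of -0.40. The corresponding share of all genes tested was 20.4%. MCM2, a subunit of the replicative helicase, stood at 155 ± 2.19 and 95.6 ± 5.53 TPM (-0.69 ± 0.08). PCNA, the sliding clamp, stood at 567 ± 16.6 and 435 ± 31.6 TPM (-0.38 ± 0.07), and TOP2A, the topoisomerase that untangles chromosomes, at 114 ± 5.25 and 74.1 ± 5.2 TPM (-0.62 ± 0.08). CDK1 (-0.14 ± 0.08), AURKA (-0.01 ± 0.06) and ASPM (-0.23 ± 0.11) were the mitosis genes that did not pass.

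The 3 isoform 10 libraries differed in the size of this shift. The median difference of the S-phase genes from the parental mean was -0.33, -0.38 and -0.55 in isoform 10 replicates 1, 2 and 3 on the log2 scale, and that of the mitosis genes -0.35, -0.29 and -0.57. Without isoform 10 replicate 3, 27 S-phase and 24 mitosis genes passed. In these bulk samples a smaller share of cycling cells and less of these transcripts per cell cannot be told apart. CDKN1A, an inhibitor of cyclin-dependent kinases, was the 1 gene called of 26 p53 targets tested, at 106, 105 and 100 TPM in the parental and 233, 217 and 230 TPM in the isoform 10 libraries (1.12 ± 0.09). The list as a whole had a median of 0.05, and 1.12% of all genes tested were called higher.

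Several groups had no called member in limma. Their counts without the fold threshold stand beside 17.0% of all genes tested on the higher and 20.4% on the lower side. Of 25 cholesterol synthesis genes tested, none was called, 5 passed on the higher and 3 on the lower side without the fold threshold, and the median was 0.02. Of 25 interferon-stimulated genes, none was called, 5 passed on the higher and 7 on the lower side, and OAS3, a sensor of double-stranded RNA, was the lowest (29.2 ± 2.04 and 15.2 ± 0.436 TPM, -0.90 ± 0.09). Of 17 tight junction genes, none was called, 9 passed on the higher and 1 on the lower side, with TJP3, a junction scaffold, at 0.87 ± 0.13. Of 16 Wnt targets, none was called, 1 passed on the higher and 8 on the lower side. SOX4 was the lowest of these (206 ± 3.12 and 106 ± 4.31 TPM, -0.95 ± 0.08), while MYC stood at 153 ± 1.41 and 152 ± 1.7 TPM.

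**Figure D3:**
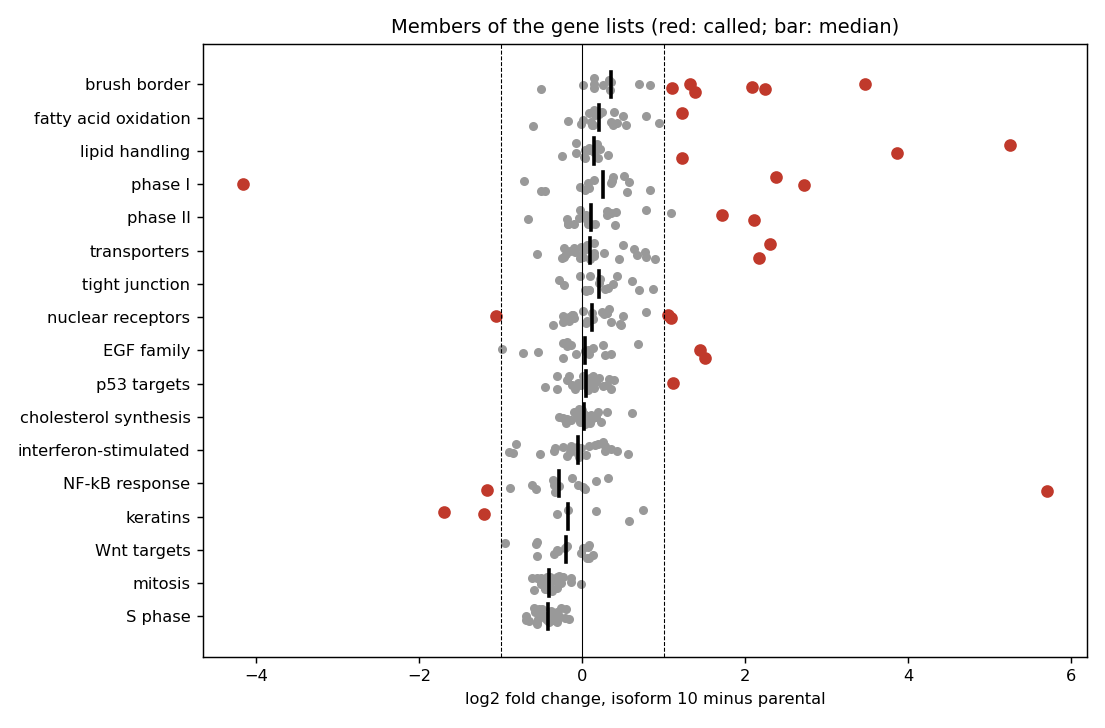
Log2 fold change of isoform 10 minus parental (horizontal axis) for the tested members of 17 gene lists (vertical axis), each point 1 gene, with called genes in red and the list's median as a black bar. Brush border holds 6 called genes, all higher, and the S phase and mitosis points lie below 0 with medians of -0.42 and -0.40 and no call.

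Some called genes were neighbours in the genome. Within 100 kb there were 18 adjacent pairs of genes both called higher and 2 both called lower, of which 5 overlap each other. The pair RNU1-3 and RNU1-4 holds identical values in the table, so it is among these pairs without being a pair of measurements, and 6 of the 215 called rows repeat another row. These pairs were picked out after their values were seen, and no share over all genes was computed for them. C11orf86 lies between PC, the gene of pyruvate carboxylase (7.25 ± 0.336 and 21.9 ± 1.15 TPM, 1.47 ± 0.06), and SYT12, a synaptotagmin (1.56 ± 0.09), at gaps of 16901 and 29774 bases. EREG and AREG lie 56383 bases apart on chromosome 4. TRIM10 (2.00 ± 0.12) and TRIM15 (2.20 ± 0.12), genes of tripartite motif proteins, lie 2272 bases apart on chromosome 6.

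On chromosome 1 the calcium-binding protein gene S100A14 lies 1801 bases from S100A13. S100A14 measured 15.2, 17.3 and 17.2 TPM in the parental and 134, 135 and 125 TPM in the isoform 10 libraries (2.91 ± 0.11), and S100A13 changed by 1.04 ± 0.05. CYP11A1, which makes pregnenolone from cholesterol and so stands upstream of CYP17A1 in steroid synthesis, went from 0.0861 ± 0.0371 to 5.09 ± 0.59 TPM (2.48 ± 0.10). It is 41549 bases from SEMA7A (1.09 ± 0.14). On the lower side KRT80 and KRT7 lie 40520 bases apart. HBE1 (-1.64 ± 0.18) and OR51B5 (-1.49 ± 0.16) overlap, so their values may rest on the same reads.

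The isoform 10 line was then set against the 3 lines most like it by construction, in the same fit and with the same thresholds. All isoform lines of the series are GFP fusions and had the same doxycycline, blasticidin and hygromycin B doses as the isoform 10 line. Each isoform has 1 group of 3 libraries, so isoform and clone cannot be told apart in these comparisons either. Isoform 11 is the form with a short insertion in the C-terminal part and the N-terminus of isoform 10, isoform 12 has that N-terminus with a shorter C-terminus, and isoform 7 has the C-terminus of isoform 10 with another P2 N-terminus. Against isoform 11, 30 genes were called (0.2%), 22 higher in isoform 10 (0.147%) and 8 lower (0.0533%). Against isoform 12, 80 were called (0.533%), 63 higher (0.42%) and 17 lower (0.113%). Against isoform 7, 114 were called (0.76%), 89 higher (0.593%) and 25 lower (0.167%). HNF4A levels averaged 613.85 ± 3.34 TPM for isoform 11, 677.73 ± 42.407 TPM for isoform 12 and 732.56 ± 35.504 TPM for isoform 7, beside 661.31 ± 45.386 TPM for isoform 10 (SD, n = 3). None of the 3 differences passed the test (adjusted p = 0.683, 0.9 and 0.47). These comparisons share the isoform 10 libraries with the comparison against the parental cells, so they are not independent of it.

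CYP17A1 was higher in isoform 10 than in these 3 lines. It averaged 11.3 ± 1.79 TPM in isoform 10, 3.26 ± 0.339 TPM in isoform 11, 1.2 ± 0.31 TPM in isoform 7 and 0.63 ± 0.127 TPM in isoform 12, with adjusted p of 1.73e-07, 3.12e-12 and 1.48e-13. Isoform 10 was not the line with the most CYP17A1, since isoform 1 averaged 23.8 ± 5.9 TPM (-1.0 ± 0.17 for isoform 10 minus isoform 1, adjusted p = 2.49e-05). BAAT had the same order (12.2, 5.99, 3.6 and 1.67 TPM), and the isoform 11 difference, 0.91 on the log2 scale, did not reach the fold threshold. IL32 was at 73.4 ± 1.93 TPM in isoform 10, 70.9 ± 3.54 TPM in isoform 11 and 8.89 ± 0.397 TPM in isoform 12, so that of isoforms 11 and 12 the latter differed by the test (2.91, adjusted p = 1.45e-14) and the former did not pass it (0.05, adjusted p = 0.879). Isoform 7 was at 42.7 ± 2.69 TPM, 0.77 below isoform 10 (adjusted p = 0.000332), short of the fold threshold. ACSL5 was likewise lower in isoform 12 (12.2 ± 0.516 TPM) and within 0.14 of isoform 10 on the log2 scale in isoforms 7 and 11.

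ANPEP went the other way. It was higher in isoforms 7 and 11 (8.46 TPM in each) than in isoform 10 (3.94 TPM), by 0.95 on the log2 scale in both (adjusted p = 2.39e-08 and 9.32e-08), short of the fold threshold, and lower in isoform 12 (0.299 TPM, adjusted p = 1.51e-14). KRT7 was lower in isoform 10 (1.87 TPM) than in isoform 7 (11.2 TPM) and isoform 11 (6.1 TPM) but not distinguishable from isoform 12 (1.73 TPM, adjusted p = 0.754). DHRS2 was at 4.43 TPM in isoform 10 and 4.35 TPM in isoform 7, and higher in isoform 11 (17.7 TPM) and isoform 12 (11.8 TPM). HBE1 averaged 16.4 ± 1.93 TPM in isoform 12, 7.68 ± 2.05 TPM in the parental cells and 1.73 ± 0.344 TPM in isoform 10.

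**Figure D4:**
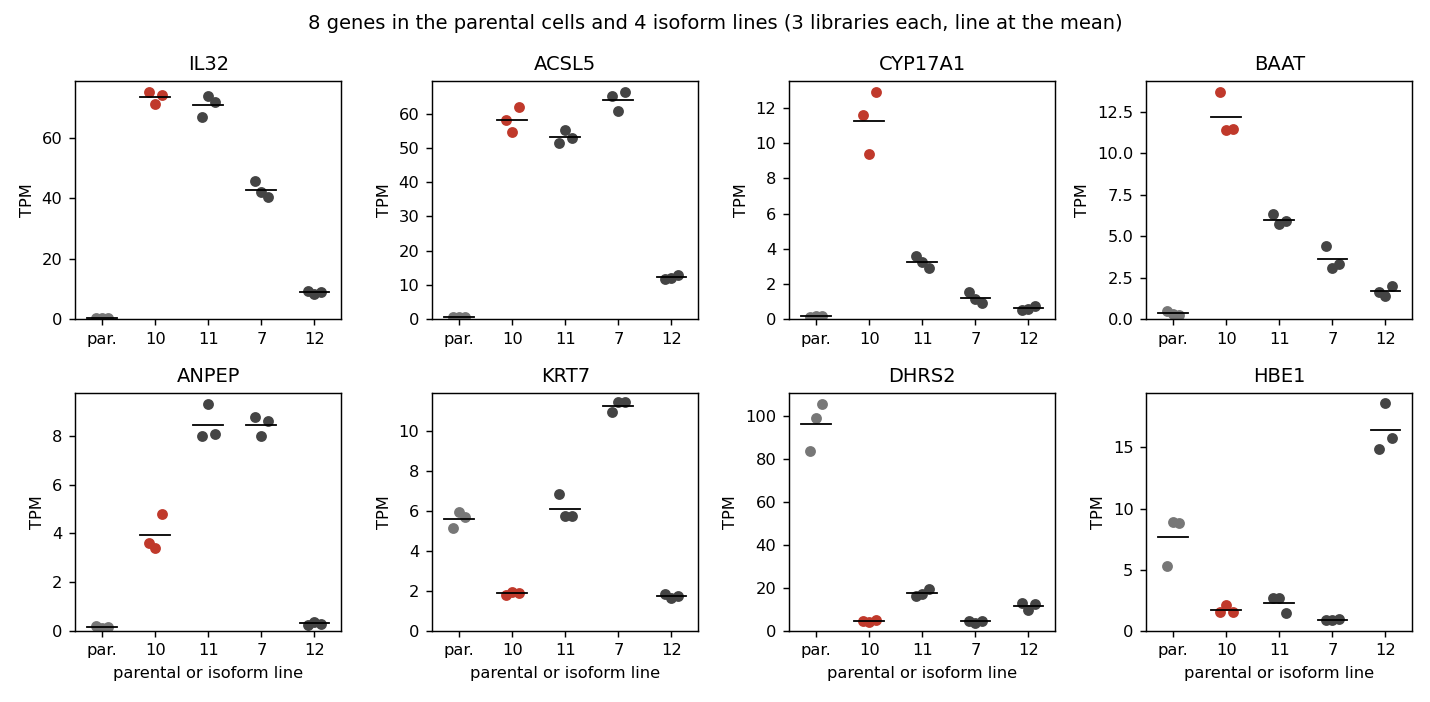
TPM (vertical axes, each from 0) of 8 genes in the parental cells (par., grey), the isoform 10 line (red) and the lines of isoforms 11, 7 and 12 (dark), each point 1 of 3 libraries and each line a mean. Of these groups isoform 10 has the highest CYP17A1 and BAAT levels, IL32 and ACSL5 are lower in isoform 12 than in isoform 10, and KRT7 is lower in isoforms 10 and 12 than in isoforms 7 and 11.

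No gene was called in the same direction in all 12 limma comparisons of isoform 10 with the parental cells and the 11 other lines. At an unadjusted p under 0.05 and any fold change, 29 genes differed in 1 direction in all 12, and at an adjusted p under 0.05 there were 14.

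The authors' deposited table for isoform 10 holds fold changes from a count model, and whether they were shrunk is not given in the sources used here. At the same cut-off values 299 genes passed in the authors' deposited table, 232 higher and 67 lower. That count covers all deposited rows, without the filter used here, and its fold changes are not on the log2(TPM + 1) scale. It is therefore not directly comparable with the 215. Of the 215 genes called here, 199 (92.6%) passed an adjusted p under 0.05 there in the same direction at any fold change, and 9 had no adjusted p. The same libraries lie behind both, so this is not an independent check, and no share over all genes was computed for it. For IL32 the authors' deposited table gives 6.13 ± 0.14 and for DHRS2 -4.19 ± 0.09 (log2 fold change and its SE). Other genes among the 12 highest here were further apart, in both directions. VIPR1-AS1 was at 0.87 ± 0.18 there and 3.54 ± 0.62 here, and AQP7P3 at 2.96 ± 0.19 there and 3.86 ± 0.19 here. Higher there were BAAT, at 4.41 ± 0.14 and 3.29 ± 0.16 here, and CYP17A1, at 4.43 ± 0.17 and 3.39 ± 0.17 here.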

How the data were processed

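Poly(A) RNA of 39 libraries in 13 groups was sequenced. TPM per gene symbol was deposited by the authors. Per the submitters' processing notes the tools were Trimmomatic 0.36, FastQC 0.11.5, kallisto 0.44.0 and DESeq2 1.22.2, with GRCh38.p12. The deposited isoform 10 table also holds the authors' mean normalized signal per gene, log2 fold changes with standard errors, and adjusted p-values. No depth comes with TPM.

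The deposited TPM values were converted to log2(TPM + 1), and a gene was kept when its TPM averaged 1 or more across all 39 libraries (15002 of 45434 rows, the 12 HNF4A rows left out). limma 3.58.1 in R 4.3.3 (eBayes with trend) fitted 13 groups together with 26 residual degrees of freedom and Benjamini-Hochberg adjustment, and was tested on simulated data. SEs come from that fit. Sample titles gave the groups. Coordinates are GENCODE release 29 (GRCh38).

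Genes named are HNF4A, the 12 highest and 12 lowest called, the 5 widest rises and falls in TPM, called members of 30 gene lists and their abundant members. Others were chosen after their values were seen, and 1 gene the rule names is not reported here. Members and lists were chosen with earlier results of these data known. Same-numbered libraries did not deviate together (r = -0.024, 0.069 and 0.019), so the fit has no replicate block. Alternatives were the pseudocount, the filter, the scaling, the libraries fitted, the block, leaving out each library and the fold threshold.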

Additional observations from a re-analysis of the deposited data

Results flagged for a closer look

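These named genes were called against the parental cells and also met both thresholds between isoform 10 and isoform 12, 7 or 11. The thresholds were an adjusted p under 0.05 in the limma test of the difference itself and an absolute log2 difference of at least 1. Named genes that passed that test by a smaller difference are not listed. Values are isoform 10 minus the other line on the log2(TPM + 1) scale. Against isoform 12 they were 2.09 for C11orf86, 2.91 for IL32, 2.16 for ACSL5, 1.71 for CIDEC, 2.22 for AQP7P3, 1.93 for VIPR1, 1.71 for APOBEC1, 1.21 for MYO15B and 2.91 for CYP17A1. The same held for S100A14 (1.33), PIPOX (2.24), VTN (2.64), HPD (2.59), CYP11A1 (2.30), RBP2 (2.34), SDCBP2 (1.25), SYT12 (1.02), IQGAP2 (1.46), SEMA7A (1.16), SEPT5 (1.57) and SEPT5-GP1BB (2.02), named after their values were seen. BAAT differed by 2.30, CYP1A1 by 1.34, SLCO2B1 by 2.16, ABCG2 by 1.13, ANPEP by 1.92, CREB3L3 by 1.11, SRXN1 by 1.11, MGST2 by 1.01 and ACAA2 by 1.03. Lower in isoform 10 than in isoform 12 were HBE1 (-2.67), OR51B5 (-2.99), TMEM132D-AS1 (-1.22) and DHRS2 (-1.23).

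Against isoform 7 the values were 2.48 for CYP17A1, 1.52 for BAAT, 1.45 for RBP2, 1.07 for LGALS4 and 1.04 for CD24, and on the lower side -2.09 for KRT7, -1.29 for KRT80, -1.41 for ADGRF1, -1.33 for CITED4, -1.37 for FGFBP1, -1.21 for S100A14 and -1.12 for HPD. S100A14 and HPD were higher than in the parental cells and lower than in isoform 7. Against isoform 11 they were 1.52 for CYP17A1, 1.19 for RBP2, -1.30 for KRT7, -1.17 for FGFBP1 and -1.78 for DHRS2.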

How the results depend on the processing

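The count of genes called against the parental cells depended on the pseudocount, the filter and the fold threshold. With a pseudocount of 0.1 it was 337 (102 lower), with a filter of 5 TPM 134 (111 higher and 23 lower), and without a minimum fold change 5602 (2544 higher and 3058 lower), so that the share called higher went from 78.1% to 45.4%. In the same order the counts were 244, 59 and 3833 against isoform 7, 82, 11 and 2013 against isoform 11, and 123, 46 and 2670 against isoform 12. Leaving out 1 of the 6 libraries gave 210 to 220 called genes (163 to 171 higher, 46 to 53 lower). Leaving out 1 isoform 10 library gave 107 to 120, 30 to 37 and 76 to 86 against isoforms 7, 11 and 12, whose own libraries were not left out. Other scaling gave 216. The replicate block, fitted on the 33 libraries with a usable number and so without 6 of the 39, gave 218 (170 higher and 48 lower) against the parental cells and 117, 32 and 78 against isoforms 7, 11 and 12. Same-numbered libraries share only a number. Of the 215 genes, 211 were called again with the smaller pseudocount and 212 with the other scaling. The 56 named genes gave 715 values under these alternatives, of which 707 kept direction and call, 8 lost the call (among them those of RPL21 and NR2F1) and none reversed. Without the fold threshold, 27 to 30 of 30 S-phase genes and 24 to 27 of 30 mitosis genes passed on the lower side under every alternative run. The unknown depth of TPM limits what low levels can show.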

Other observations

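The 14 genes that differed in 1 direction from the parental cells and all 11 other lines at an adjusted p under 0.05 (limma, any fold change) were chosen after their values were seen, and most differences were small. PAPSS2, which makes the sulfate donor of sulfotransferases, measured 24.5, 22.4 and 23.9 TPM in the isoform 10 line where the parental cells had 12.1 ± 0.0849 TPM (SD, n = 3). The next line, isoform 11, was at 14.3 ± 1.24 TPM, a difference of 0.69 ± 0.08 (SE) on the log2 scale. IQGAP2, a scaffold of the cytoskeleton, averaged 9.11 ± 1.63 TPM in isoform 10, 2.5 ± 0.134 TPM in the parental cells and 6.42 ± 1.18 TPM in the next line, isoform 7. AHR, the aryl hydrocarbon receptor, averaged 24.5 ± 0.755 TPM against 18.2 ± 1.43 TPM in the parental cells and 20.1 ± 1.39 TPM in isoform 11. RPS7 was lower in isoform 10 than in every other group, at 1700 ± 14.6 TPM against 1940 ± 56.6 TPM in the parental cells (-0.19). SEPT5 and the readthrough SEPT5-GP1BB were among the 14 (23.0 ± 1.36 and 19.1 ± 1.36 TPM in isoform 10), and they share sequence.

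RBP2, the intestinal retinol-binding protein, was called higher than the parental cells and 9 other lines. It averaged 5.17 ± 0.839 TPM in isoform 10, 0.35 ± 0.0855 TPM in the parental cells and 11.3 ± 2.31 TPM in isoform 1, the line with the highest level. VTN, the plasma and matrix protein vitronectin, measured 0.0378, 0.0275 and 0.021 TPM in the parental and 5.85, 5.74 and 8.21 TPM in the isoform 10 libraries (2.87 ± 0.13). HPD, an enzyme of tyrosine breakdown, measured 0.767, 0.612 and 0.605 TPM and then 10.2, 10.6 and 11.9 TPM (2.84 ± 0.11). For both genes every isoform 10 library lay above every parental one.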
